A study of Homo sapiens with 2 samples.

Results

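The genes described here encode core parts of the spliceosome, SR proteins and heterogeneous nuclear ribonucleoproteins (hnRNPs). With earlier results of these data known, they were taken by name from the probes with a single array symbol. That symbol, or its current name, had to begin with SNRP, SF3A, SF3B, PRPF, SFRS, SRSF, HNRP, HNRNP or U2AF, or LSM and a digit. This gave 71 of the 24267 probes, for 66 of the 12445 genes named on the array. The cells were KYSE-170, a human oesophageal squamous carcinoma line. One sample, called ncRNA, was transfected with an oligoribonucleotide that the labels do not describe further, and the other, called miR-210, with one for miR-210, both with the reagent Hiperfect in medium with fetal bovine serum. The time between transfection and RNA extraction is not given in the sources used here. Each transfection was measured on 1 array, with Cy5-labelled cRNA made from 500 ng of total RNA, so no value below has a replicate and no p-value is given.

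The spliceosome removes introns from pre-mRNA and is built anew on each intron. The U1 small nuclear ribonucleoprotein (snRNP) binds the start of the intron, U2AF and the U2 snRNP mark its end and branch point, and the U4/U6 and U5 snRNPs then join as one unit that is rearranged into the active enzyme. SR proteins mostly favour the use of nearby splice sites, hnRNPs coat the transcript and often oppose them, and the balance between these families shapes alternative splicing. miR-210 is a microRNA known for its induction by hypoxia. The older name miR-210 refers to the arm now called 3p. Both arms are shown because the labels do not say which sequence the oligoribonucleotide carried. The seed, bases 2 to 8, which pairs with target transcripts, is in capitals.
hsa-miR-210-3p: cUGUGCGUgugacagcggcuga
hsa-miR-210-5p: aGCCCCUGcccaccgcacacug
Both sequences are those of RefSeq on GRCh38.p14, where they lie on the minus strand at chr11:568112-568133 and chr11:568150-568171. The 7 bases of RNA that pair fully with the seed of the 3p arm read acgcaca, and for the 5p arm caggggc. Transcript sequences of the genes below were not searched for these sites.

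The median of all probes was an intensity of 39 with ncRNA and 36 with miR-210. All values are intensities as deposited, and the log2 ratio is miR-210 minus ncRNA after quantile normalization of the 2 arrays. On the deposited scale the median gene stood at -0.12, and normalization raised the log2 ratios of the genes described here by 0.09 to 0.23. A gene can therefore show a log2 ratio above 0 with nearly equal intensities. Of the 66 genes, 60 passed the level filter, which asked for a mean level of at least 37.5. The only error that can be given is the spread between probes, an SD of 0.44 of a probe's log2 ratio around its gene, from 251 genes with 2 or more probes that passed. It leaves out the differences between cultures, RNA preparations and arrays. Among markers of squamous epithelium 8 of 9 on the array passed the filter, with intensities up to 12693 and 7094 (SFN, a stratified-epithelium 14-3-3 protein). TP63, the transcription factor that defines squamous cells, was the one that did not pass, at 57 and 22. Of 14 fibroblast, leukocyte and endothelial markers on the array 5 passed, none above 183 on either array. Among those that did not pass, COL1A1 (21 and 16) and PTPRC (9 and 10) lay under the array medians. The squamous markers PKP1 (30 and 49), CDH1 (64 and 69) and DSG3 (72 and 76) were dimmer than DCN (183 and 181). They also lay under CD79A (133 and 126) and VWF (126 and 103). The contrast in level thus rests on the brighter squamous markers. The summed intensity of the squamous markers was 19625 and 17111, against 329 and 318 for fibroblast, 174 and 176 for leukocyte and 223 and 174 for endothelial markers. SFN and TP63 were the 2 squamous markers with the lower intensity under miR-210. The other 7 read higher there, among them KRT17 (1541 and 2736), KRT5 (290 and 496) and EPCAM (4502 and 6165). Without SFN the sum was 6932 and 10017, most of it from EPCAM, an epithelial marker not particular to squamous cells. The part of these differences in the ratios below was not tested. FGFRL1, a reported miR-210 target, read 277 and 21. Whether that report drew on these arrays is not stated in the sources used here, so the value is no independent check.

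Most spliceosome and hnRNP genes differed little between the arrays, and 5 of the 60 were at least 2-fold apart. SNRPC, HNRNPM and PRPF31 were higher with miR-210, and LSM5 and SRSF6 were lower. Among all 6681 genes that passed the filter, 3.02% were higher and 3.17% lower by this limit, together 6.2%, against 8.33% of the 60. PRPF31 (28 and 61) passed the level filter of 37.5 only through its miR-210 value. With only probes at or above the median of each array, 2 of 59 genes were higher and 2 lower. Under that setting 5.15% of all genes were at least 2-fold apart. The median log2 ratio of the 60 genes was 0.08, with the middle of the distribution between -0.15 and 0.34 (25th and 75th percentiles). Over all genes the median was 0.01 and these percentiles were -0.29 and 0.32. A log2 ratio above 0 was found for 34 of the 60, or 56.7%, against 50.8% of all genes. Ratios farther from 0 than the spread between probes were found for 20 of the 60, 14 higher and 6 lower, or 33.3%. Over all genes 17.9% were higher and 16.8% lower by this measure, together 34.8%. The shares at least 2-fold apart, above 0 and past the spread either way thus lay near those of the whole array. By direction they differed more, since past the spread 14 of the 60 were higher and 6 lower, while all genes were nearly even. This difference was not tested. The SD of their log2 ratios was 0.59, and 0.49 without SNRPC, against 0.54 over all genes.

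**Figure D1:**
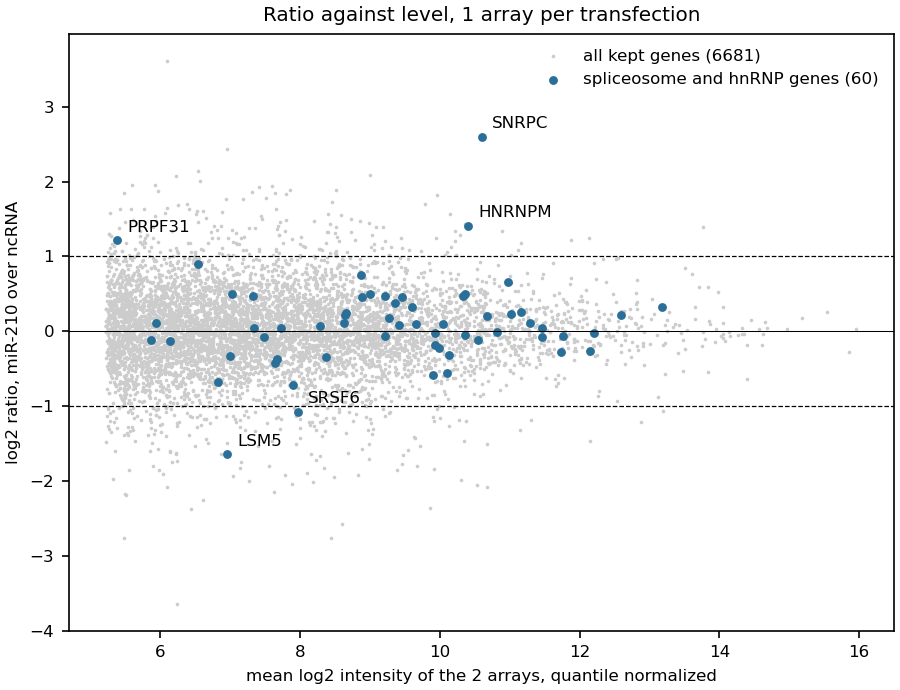
Log2 ratio of miR-210 over ncRNA (vertical) against the mean log2 intensity of both arrays (horizontal), after quantile normalization, for all 6681 genes that passed the level filter (grey) and the 60 spliceosome and hnRNP genes (blue). Dashed lines mark 2-fold, and the 5 named genes lie beyond them, SNRPC farthest at 2.60 and PRPF31 at the dim end.

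The U1 snRNP held the largest difference. SNRPC, the U1 C protein that steadies the pairing of U1 RNA with the start of the intron, read 654 with ncRNA and 3541 with miR-210. Its log2 ratio of 2.60, or 6.06-fold higher with miR-210, ranked 2 from the highest of all 6681 genes. The other proteins specific to U1 did not share it. SNRNP70, the U1 70K protein, which contacts SR proteins, read 1659 and 1353 (log2 ratio -0.12), and SNRPA, which binds a stem-loop of U1 RNA, read 1076 and 1038 (0.10). SNRPC had a single probe on the array, so no second probe bears on its value. Its 2 intensities were both far above the array medians, unlike the ncRNA value of PRPF31 described below.

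Of the Sm proteins, which form the ring around the U1, U2, U4 and U5 RNAs, only SNRPB, encoding the Sm proteins B and B′, was among the named probes used here. It read 319 and 307, with a log2 ratio of 0.06. On the deposited scale the log2 ratio was -0.06, so its direction depends on the normalization. The median gene lay on the same side of 0 as SNRPB on both scales.

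The related LSm proteins gave 8 genes, of which 7 passed the filter, 4 above 0 and 3 under it, with a median of 0.04 (-0.07 on the deposited scale). LSM5, a subunit shared by the nuclear LSm ring on U6 RNA and the cytoplasmic ring that promotes mRNA decapping, read 228 and 68. It was 3.12-fold lower with miR-210 (log2 ratio -1.64), rank 43 from the lowest. Of its partners in both rings, only LSM2 and LSM4 were among the named probes used here, and neither was lower to the same extent. LSM2 read 590 and 710 (0.38), and LSM4 read 1421 and 1219 (-0.04). LSM8, the subunit particular to the nuclear ring, read 823 and 799 (0.10). LSM1, its counterpart in the cytoplasmic ring, read 1045 and 914 (-0.03). LSM14A, a protein of processing bodies with no known place in these rings, read 378 and 592 and had the highest log2 ratio of the group (0.75). LSM10, a subunit of the U7 snRNP that processes histone mRNA, read 217 and 207 (0.04). LSM14B, at 14 and 21, did not pass the filter. LSM5 therefore stood apart from the ring subunits LSM1, LSM2, LSM4 and LSM8 by more than the spread between probes, on a single probe.

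Genes of the U2 snRNP and of U2AF, which recognise the branch point and the end of the intron, showed none at 2-fold. The share over all genes was 6.2%, so an absence among this few genes says little about the group. Of 14 genes, 11 passed the filter, 6 above 0 and 5 under it, with a median of 0.10. The group median was 0.00 on the deposited scale and -0.07, with 5 of 11 above 0, when the probes of a gene were averaged. The 3 highest were SF3A3, SNRPB2 and SF3B2. SF3A3, a subunit of the SF3a complex, read 1163 and 1474 (log2 ratio 0.50), and SNRPB2, the U2 B″ protein, read 1156 and 1438 (0.47). The brighter probe of SF3B2 read 2226 and 2378 (0.25). The 3 lowest were SF3B1, U2AF1 and SF3A1. SF3B1, the branch-point clamp of U2 and often mutated in myelodysplastic syndromes, read 150 and 86 and was 1.61-fold lower (-0.68). U2AF1, the small U2AF subunit that reads the AG at the intron end, read 4030 and 2867 (-0.28), and SF3A1 read 1100 and 875 (-0.18). Subunits of the same complex thus lay on both sides of 0. SF3B3 (600 and 630) and SF3B5 (3812 and 3198), which assemble with SF3B1, had log2 ratios of 0.18 and -0.07. SNRPA1, the U2 A′ protein and partner of SNRPB2, stood at 0.23. The minor-spliceosome relative ZRSR2 read 61 on both arrays (0.10), and U2AF1L4, a U2AF1 relative, stood at -0.14.

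The genes of this group that did not pass were SF3A2 (2 and 9), SF3B4 (35 and 36) and U2AF2 (16 and 22). Their probes lay at or under the array medians on both arrays. No fold is given for SF3A2, because both intensities are at the bottom of the range.

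The PRPF genes, whose products belong to the U4/U6 and U5 particle, the PRP19 complex or act beside them, gave 8 genes and 7 that passed, 4 above 0 and 3 under it, with a median of 0.04. The group median was -0.07 on the deposited scale, and -0.14 both with no level filter (8 genes) and with only probes at or above the median of each array (6 genes). PRPF31, a U4/U6 protein mutated in inherited retinal degeneration, read 28 and 61, or 2.32-fold higher (log2 ratio 1.21), rank 111 from the highest. Its ncRNA value lay under that array's median of 39. With an offset of 10 added to every value its log2 ratio was 0.98, under the 2-fold limit. PRPF18, a factor of the second catalytic step, read 618 and 785 (0.46), and PRPF4, a U4/U6 protein, read 689 and 674 (0.09). The 3 lowest were close together. PRP4K, the kinase formerly called PRPF4B that acts on tri-snRNP proteins, read 392 and 282 (-0.35). PRPF6, which bridges U5 with U4/U6, read 149 and 110 (-0.33), and PRPF19, the ubiquitin ligase of the PRP19 complex, read 1330 and 947 (-0.32). PRPF39, a U1-associated protein, stood at 0.04. PRPF8, the large U5 protein at the centre of the spliceosome, gave only 32 and 16 on its probe and did not pass. These 3 lowest and PRPF18 all differed from 0 by about the spread between probes or less.

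**Figure D2:**
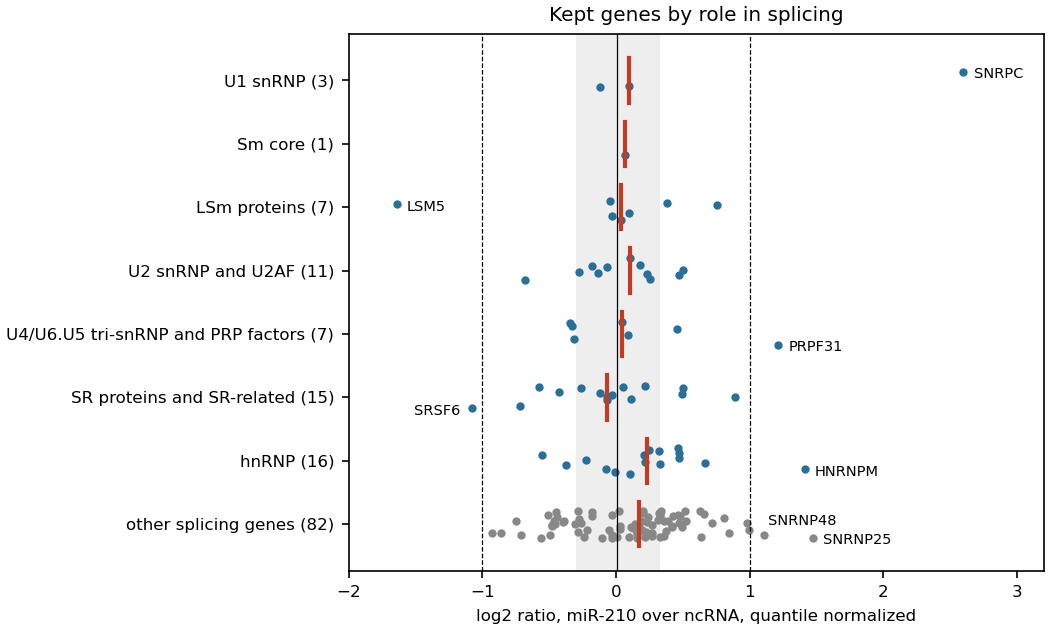
Log2 ratio of miR-210 over ncRNA (horizontal) for each gene that passed the level filter, in rows by role, with the number of genes in brackets. Red bars are row medians, the black line is the median of all genes and the grey band their 25th to 75th percentiles (-0.29 to 0.32), dashed lines mark 2-fold, and vertical scatter within a row has no meaning. Medians of the 7 role groups lie between -0.07 for SR proteins and 0.23 for hnRNPs.

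SR and SR-related genes gave 15 genes, all of which passed the filter, 6 above 0 and 9 under it. Their median was -0.07, the lowest of the 7 role groups with the filter used here. The PRPF group was lower, at -0.14 against -0.07, under 2 other settings. These were no level filter, and only probes at or above the median of each array. The 3 lowest were classical SR proteins. SRSF6 read 379 and 166 and was 2.11-fold lower with miR-210 (log2 ratio -1.08, rank 182 from the lowest). SRSF7 read 321 and 179 (-0.72), and SRSF5 read 1233 and 743 (-0.58). Other classical members stood nearer 0. SRSF3, at 5166 and 4360, and SRSF2, at 3110 and 2567, had log2 ratios of -0.03 and -0.07. SRSF1, the founding member of the family, read 2984 and 2675 (0.05), and SRSF4 read 387 and 412 (0.22). SRSF9 read 5272 and 3879 (-0.26).

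The 3 highest genes of this group were SR-related proteins and not classical members. SUGP2 read 71 and 123, or 1.86-fold higher (0.89), the nearest gene under the 2-fold limit. SREK1, which works with SR proteins, read 114 and 149 (0.50), and SCAF11 read 452 and 587 (0.49). SCAF4, which binds the tail of RNA polymerase II, lay at the other end with 241 and 166 (-0.43). SRSF10, SRSF11 and SFSWAP lay between -0.12 and 0.11. On the deposited scale 4 of the 15 genes were above 0 and the group median was -0.22, and 5 of the 15 lay above the median of all genes on that scale.

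Of 17 hnRNP genes 16 passed the filter, 11 above 0 and 5 under it, with a median of 0.23. Those above 0 made up 68.75%, against 50.8% of all genes. Only 6 of the 16 lay past the spread between probes, 5 higher and 1 lower. This was 37.5%, against 34.8% of all genes. HNRNPM, a splicing regulator known for promoting mesenchymal splice forms in carcinoma cells, read 873 and 2078, or 2.66-fold higher with miR-210 (log2 ratio 1.41, rank 59 from the highest). Next came HNRNPH1, a binder of G-rich RNA, with 1700 and 2402 at its brighter probe (0.66), and HNRNPR with 523 and 671 (0.47). The relatives HNRNPH2 (141 and 182) and HNRNPL (422 and 539), the latter a binder of CA repeats, had log2 ratios of 0.47 and 0.46. Of these genes only HNRNPM reached 2-fold.

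The 3 lowest hnRNP genes were HNRNPAB, HNRNPF and HNRNPH3. HNRNPAB read 1411 and 859 (-0.56), HNRNPF read 241 and 172 (-0.37), and HNRNPH3 read 1156 and 888 (-0.23). HNRNPF and HNRNPH3 belong with HNRNPH1 and HNRNPH2 to a family of binders of G-rich RNA, so members of this family stood on both sides of 0. HNRNPC, which coats nascent transcripts, read 9080 and 9683 (0.33). HNRNPU, a nuclear scaffold protein, read 6171 and 6099 (0.22, and -0.02 on the deposited scale). HNRNPA1, a well-studied antagonist of SRSF1, read 721 and 822 (0.32), and its relative HNRNPA2B1 read 1933 and 1703 (-0.01). HNRNPD, HNRNPDL, HNRNPUL1 and HNRNPLL lay between -0.08 and 0.25, and HNRNPA0, at 33 and 38, did not pass. On the deposited scale 9 of the 16 were above 0 with a median of 0.06, and 11 of the 16 lay above the median of all genes on both scales. The difference between the medians of hnRNP and SR genes was not tested. HNRNPA1, HNRNPH1 and HNRNPH2, U2AF1 and others have near-identical relatives or pseudogenes, and probe sequences were not used here, so a signal shared between copies cannot be told apart.

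**Figure D3:**
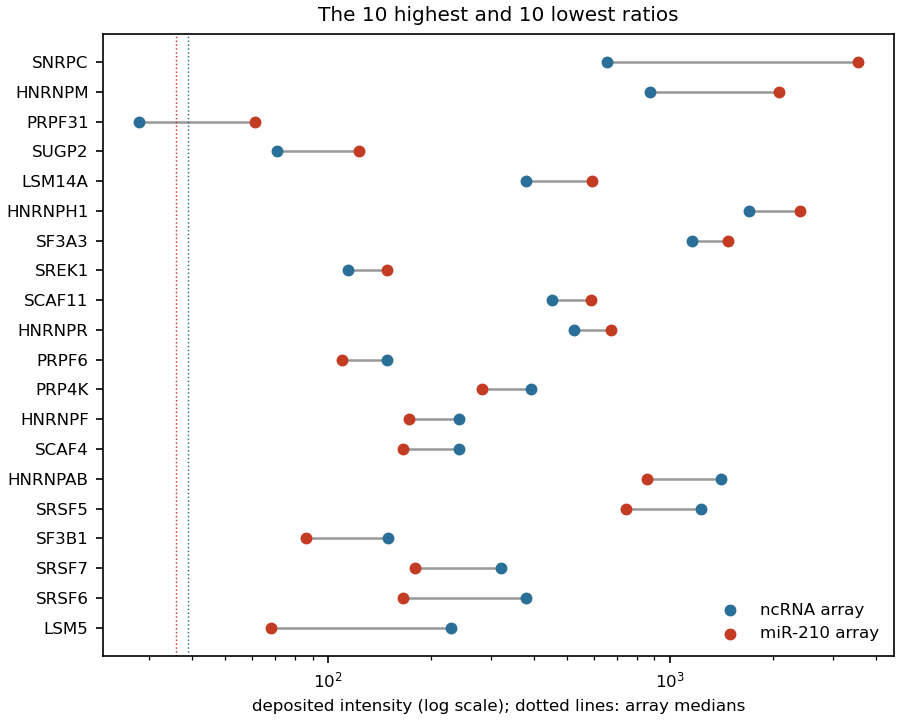
Deposited intensity on a log scale for the 10 genes with the highest (top) and the 10 with the lowest (bottom) log2 ratios among the 60, ordered by ratio after quantile normalization, with the ncRNA array in blue and the miR-210 array in red. Dotted lines are the array medians of 39 and 36; only PRPF31 has a point under its array's median, at 28.

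Only 5 of the 66 genes had a second probe, and these show how far 1 probe can be relied on. The probes of SF3B2, a subunit that tethers U2 to the branch point, pointed in opposite directions, with 2226 and 2378 at one (log2 ratio 0.25) and 274 and 167 at the other (-0.60). This difference of 0.86 was the largest of the 3 genes with both probes above the filter. HNRNPH1 had 0.66 and 0.19 (1268 and 1285 at the dimmer probe), a difference of 0.47. SRSF10 had 0.11 (398 and 394) and -0.28 (219 and 167), a difference of 0.39. The second probe of SRSF6 read 31 and 23 and did not pass the filter. Its log2 ratio of -0.36 had the same sign as the -1.08 of the brighter probe and was not 2-fold lower. The second probe of U2AF1L4, at 29 and 20, did not pass either. Of the 5 genes at least 2-fold apart, SRSF6 alone thus had any second probe.

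**Figure D4:**
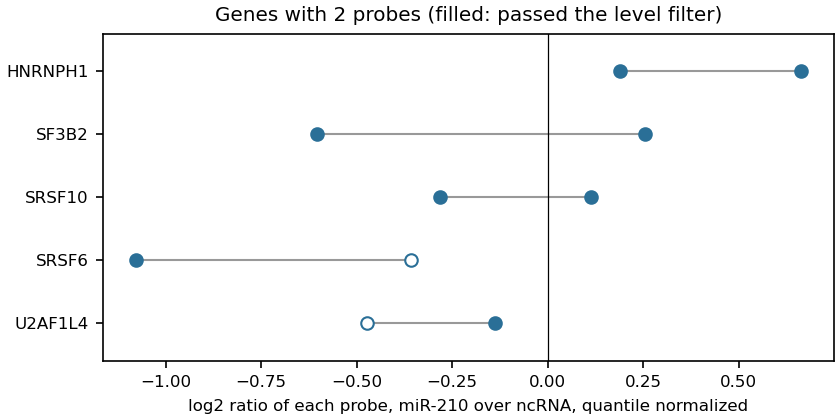
Log2 ratio of miR-210 over ncRNA for each probe of the 5 genes with 2 probes, after quantile normalization; filled points passed the level filter and open points did not. The probes of SF3B2 and SRSF10 lie on opposite sides of 0, and those of HNRNPH1, SRSF6 and U2AF1L4 on the same side.

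A further list held 96 splicing genes on the array that the name rule does not take, such as other snRNP proteins, helicases, the SMN complex, SR kinases and other RNA-binding regulators. Of these 82 passed the filter, 53 above 0 and 29 under it, with a median of 0.17. In this list 2 genes were at least 2-fold higher and none lower, or 2.44% of the 82, against 6.2% of all genes. Log2 ratios above 0 made up 64.6% of the list, against 50.8% of all genes. The list was chosen with earlier results of these data known, so its shares are no independent result. On the deposited scale the median of the list was 0.02 and that of all genes -0.12. There 52 of 83 genes of the list lay above the median of all genes. The 2 genes past 2-fold encode proteins of the U11/U12 snRNP of the minor spliceosome, which removes a rare class of introns. SNRNP25 read 183 and 470 (log2 ratio 1.47, or 2.77-fold higher), and SNRNP48 read 35 and 70 (1.11, or 2.15-fold higher), with its ncRNA value under the array median. SNRNP48 passed the level filter only through its miR-210 value, and was at 0.92 with an offset of 10. The other minor-spliceosome proteins on the array, looked up after these values were seen, were PDCD7, which read 328 and 205 (-0.56), and ZRSR2, which read 61 on both (0.10, and 0.00 on the deposited scale). The SMN complex, which loads Sm rings onto snRNAs, was grouped with CLNS1A, COIL and PRMT5, and these 9 genes had a median of 0.18. SMN1 and SMN2 were counted separately among the 9. For SR kinases and SR-like proteins the median was 0.15 over 13 genes. Genes of the exon junction complex (3 genes), U2-associated proteins (6) and the other regulators (24) had medians of 0.39, 0.30 and 0.22. The PRP19 complex and catalytic factors (13) and the other snRNP proteins (14) had medians of 0.10 and 0.04.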

How the data were processed

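The table deposited by the authors gives a linear intensity, as a whole number, for each of 24267 probes, with a background already subtracted, since values under 0 occur. The unit was read from the values; the sources used here name no scanner, background correction or normalization. Per the labels' protocols, cRNA was labelled with Cy5 and hybridised to a Toray oligonucleotide array. The 24177 probes above 0 on both arrays were taken to log2 and quantile normalized, and a probe was kept if its mean level reached the median (12089 probes). The platform annotation gave 13395 probes a single symbol, and any probe with several symbols was treated as unnamed. Symbols were updated through synonyms that RefSeq (GRCh38.p14) gives to a single gene. Of the 71 probes 6 were found by current name only. A gene took its kept probe of highest mean level. No coordinates of genes are given, because no build is named for the array. No value of the 66 genes was saturated (above 65000). With 1 array per group, genes were described by size, 2-fold being the limit. Every gene of the name rule could be named. Full values are always given for those at least 2-fold apart and the 3 highest and 3 lowest of each role group. Values of the other members were given by choice. Of the further splicing genes, values are given for those at least 2-fold apart and for PDCD7, looked up afterwards. The members, role groups and lists were chosen with earlier results of these data known. PRP4K, SFSWAP and ZRSR2 were put in role groups after the files were read. Normalization was tested on simulated data. Python 3.11.15, numpy 2.4.6, pandas 2.3.3 and statsmodels 0.14.6 were used. Alternatives were the deposited scale, loess on level (span 0.3), an offset of 10, no level filter, a filter at the 75th percentile, the mean over probes and, chosen after seeing the data, only probes at or above the median of each array.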

Additional observations from a re-analysis of the deposited data

How the results depend on the processing

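Under the 7 alternatives SNRPC, HNRNPM and SRSF6 remained at least 2-fold apart in the same direction, with log2 ratios of 2.44 to 2.60, 1.25 to 1.41 and -1.19 to -1.03. PRPF31 fell under 2-fold with an offset of 10 (0.98), and was removed by the filter at the 75th percentile and by asking for both arrays at or above their medians. LSM5 was removed by the filter at the 75th percentile, and where measured it lay between -1.75 and -1.51. That filter left 2 of 51 genes at least 2-fold higher and 1 lower, while 5.57% of all genes were at least 2-fold apart. Without a level filter SF3A2 was added to the higher genes. This made 4 of 66 higher and 2 lower, while 13.8% of all genes were at least 2-fold apart. The median over the spliceosome and hnRNP genes turned to -0.06 on the deposited scale, where the median of all genes was -0.12. It was 0.05 to 0.10 under the other alternatives, over the 51 to 66 genes that each kept. Of the 60 genes 11 changed sign under some alternative, none with a reported log2 ratio farther from 0 than 0.25: HNRNPD, HNRNPU, LSM8, LSM10, PRPF4, PRPF39, SF3B2, SNRPA, SNRPB, SRSF1 and SRSF10. No paired analysis was possible because each transfection has 1 array. The number of arrays limits the precision.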
